A study of Arabidopsis thaliana with 12 samples.

Results

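WRKY transcription factors are a plant family, and 67 of the 27432 nuclear protein-coding genes in the gene table carry a symbol made of WRKY and a number. Those 67 genes are the members described here, and they lie on all 5 nuclear chromosomes. A further 5 genes are listed under another symbol with a WRKY number only among their synonyms (ABO3, ZAP1, TTG2, TTR1 and RRS1), and they were not counted. For each member, the summits of MAC3A peaks in the gene body or within 1 kb of either end were counted in 6 chromatin immunoprecipitation sequencing (ChIP-seq) libraries of Arabidopsis thaliana seedlings, 3 titled dark and 3 titled blue. A gene is called bound in a condition here when at least 2 of its 3 libraries had such a summit.

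WRKY factors bind the W-box, a short DNA element found in the promoters of many defence and stress genes, and many WRKY genes are themselves switched on within minutes of pathogen perception, wounding or heat. The family is divided into groups by the number of WRKY domains and the form of the zinc finger: group I has a pair of domains, group II (subgroups IIa to IIe) and group III a single one. Mitogen-activated protein kinases phosphorylate several WRKY factors, and VQ proteins bind others. MAC3A is a U-box ubiquitin ligase of the MOS4-associated complex, which is related to the Prp19 complex of other eukaryotes, acts in splicing and was first found through its role in plant immunity.

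All groups share the genotype label Columbia-4, the tissue label seedling and an age of 6 days. The protocol notes give plants expressing MAC3A-GFP, with plants expressing GFP alone as the control, whereas the antibody label is anti-FLAG M2 and the titles call the controls input. The notes also name blue light for every sample, so the dark and blue groups rest on the titles. No promoter for the fusion protein, number of transgenic lines or separate culture is stated, so the p values below measure only the spread between these libraries. The file code for the third dark library bears the mark of the second, but their lists share 0 identical intervals.

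The dark lists held 1169 to 1285 peaks and the blue lists 1505 to 1820. Read totals were not used here. Solved from the fold and p columns, the background coverage was 9.96 to 11.2 fragments per position in the dark libraries and 19.6 to 22.3 in the blue libraries. At the library's own background, the lowest summit listed stood at 2.98 to 3.05 times that background in the dark lists and at 2.50 to 2.53 times in the blue lists. This multiple, the fragment pileup at a summit divided by the library's background pileup, is called the height below. The fold enrichment is the authors' own value and divides by the local background of the control, which can exceed that of the library. In the solving, the local background was not allowed below the library's own, so a multiple of 1 is a floor. Folds therefore describe peaks within 1 list, and a difference in fold between lists is not read as a change in binding. Across whole lists the median fold was 3.33 to 3.37 in the dark and 2.78 to 2.85 in blue light. Heights were also lower in blue light at most regions found in all 6 libraries. Of these 525 regions, 418 fell on depth scaling alone (79.6%, limma, adjusted p under 0.05). The share of regions without overlap between the groups was not counted.

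MAC3A summits lay at 16 of the 67 WRKY genes in at least 1 library, and 13.7% of all protein-coding genes had one. In the dark 9 WRKY genes were bound, or 13.4% of the family, where 5.61% of all protein-coding genes were. In blue light 10 were bound, or 14.9%, where 7.36% of all genes were. Counting summits inside gene bodies alone, 7 members were bound in the dark (3.14% of all genes) and 7 in blue light (3.7%). Both conditions shared 8 bound members, where 4.15% of all genes were bound in both. With a −log10 q minimum of 5 the members bound in blue light numbered 6 (3.6% of all genes) and those bound in both 5 (2.17%). With a fold minimum of 3 they numbered 4 (3.24%) and 4 (2.37%). These shares are given without a test, because the family was selected with results of these data known.

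All 9 members bound in the dark had a summit in all 3 dark libraries, which held for 1015 of the 1539 bound genes overall and for 3.7% of all genes. Of the 10 bound in blue light, 7 had one in all 3 blue libraries, as did 1395 of the 2018 bound genes overall and 5.09% of all genes. A summit in a single library of a condition was seen at 3 members in the dark, each in dark replicate 3, and at 4 members in blue light. The 6 members with a summit in all 6 libraries were WRKY7, WRKY15, WRKY33, WRKY46, WRKY47 and WRKY60, and 2.69% of all genes had that pattern. WRKY47 and WRKY60 kept all 6 libraries with a −log10 q minimum of 5 and with a fold minimum of 3. With the fold minimum WRKY15 kept 3 dark and 0 blue libraries, WRKY33 and WRKY46 3 and 1, and WRKY7 2 and 3. With the q minimum WRKY15 kept 3 dark and 1 blue, WRKY33 3 and 2, WRKY46 3 and 3, and WRKY7 1 and 2.

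The number of WRKY genes with a summit did not separate the conditions. It was 9, 9 and 12 in the dark libraries and 8, 12 and 11 in the blue libraries, so the groups overlapped. The means were 10.0 ± 1.73 and 10.3 ± 2.08 (SD, n = 3 each), a difference of 0.333 genes (exact permutation test, two-sided, p = 1). Over all protein-coding genes the share with a summit was 5.73% to 6.26% in the dark libraries and 7.31% to 8.69% in the blue libraries, with no overlap (exact permutation test, two-sided, p = 0.10, the smallest that 3 against 3 libraries allow).

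**Figure D1:**
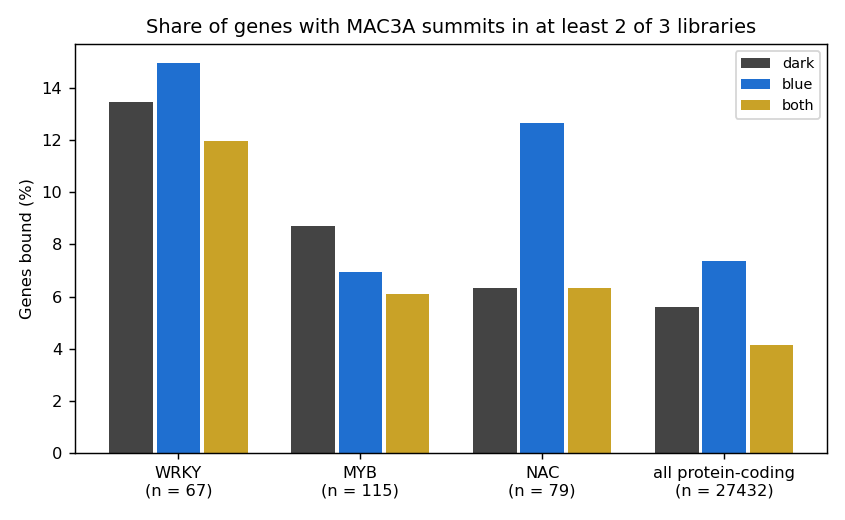
Percentage of genes bound in the dark, in blue light and in both, for WRKY, MYB and NAC genes and for all protein-coding genes; bars start at 0 and each rests on 3 libraries per condition. The WRKY bars stand at 13.4% (dark), 14.9% (blue) and 11.9% (both), against 5.61%, 7.36% and 4.15% of all genes.

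MYB and NAC genes, named by the same kind of symbol rule, are other transcription factor families. Of 115 MYB genes 8.70% were bound in the dark and 6.96% in blue light. Of 79 NAC genes 6.33% were bound in the dark and 12.7% in blue light. No difference between the families was tested.

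The lengths of the bound members are given without a test. The 11 WRKY genes bound in either condition had a median length of 1752 bp, and the other 56 had one of 2114 bp. Among all protein-coding genes of 1 to 2 kb 8.79% were bound in either condition, and 6 of the 32 WRKY genes of that length were. Of 2 to 3 kb, 10.3% of all genes and 3 of 24 WRKY genes were bound. Of 3 to 4 kb it was 9.97% and 1 of 7, over 4 kb 9.48% and 0 of 3, and up to 1 kb 4.84% and 1 of 1. All bound protein-coding genes had a median length of 2278 bp, and all protein-coding genes one of 2078 bp. Over all lengths 8.81% of protein-coding genes were bound in either condition.

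Members bound in either condition were found in 6 subgroups. Of all protein-coding genes 8.81% were bound in either condition, and no difference between subgroups was tested. Subgroup IIa, a trio of defence and abscisic acid regulators that act together, had 2 of its 3 members bound, WRKY40 and WRKY60, while WRKY18 had no summit in any library. Group III had 3 of 12 bound, WRKY46, WRKY66 and WRKY67. Group I had 2 of 11, WRKY25 and WRKY33. Subgroup IId, whose members carry a calmodulin-binding motif, had 2 of 7, WRKY7 and WRKY15. Subgroup IIb had 1 of 8, WRKY47, and subgroup IIc, with 18 genes the largest group, had 1, WRKY43. None of the 7 members of subgroup IIe was bound, and neither was WRKY19, in which a WRKY domain is fused to other domains. The members share no sample of their own, so these counts describe the same 6 libraries.

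**Figure D2:**
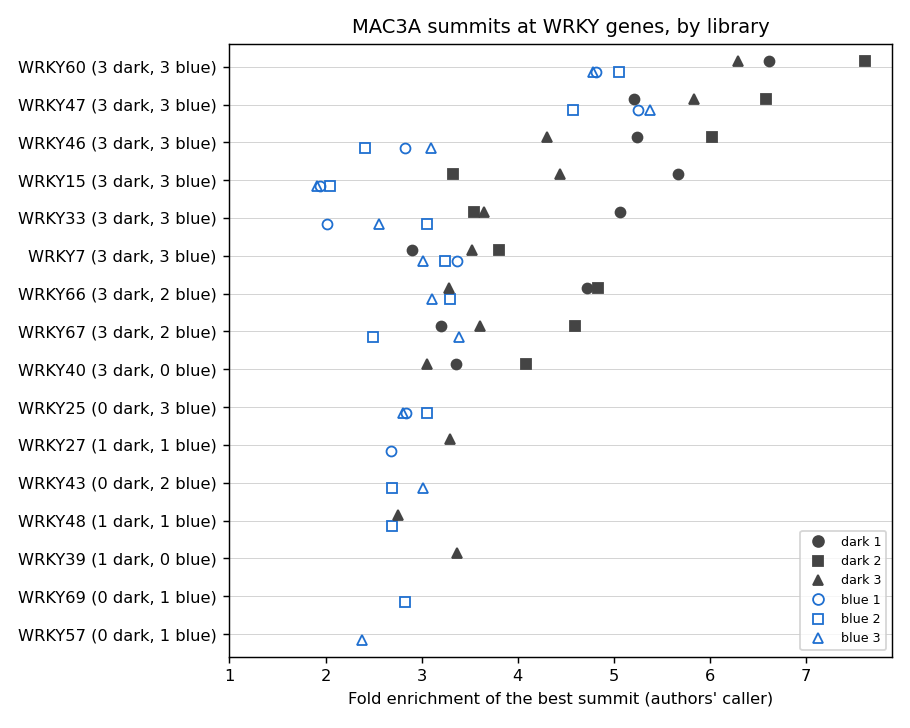
Fold enrichment of the best summit, by the authors' caller, at each of the 16 WRKY genes with a summit; filled grey symbols are dark and open blue symbols blue libraries, 1 symbol shape per replicate. WRKY60 and WRKY47 have the highest median folds in both conditions, WRKY40 has 3 dark symbols alone and WRKY25 3 blue symbols alone. The WRKY25 symbol of blue replicate 3 is a summit 112 bp outside WRKY25, inside the neighbouring gene U2B''.

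WRKY60 (AT2G25000), which encodes a partner of WRKY18 and WRKY40, had the highest fold of the family in every dark library and in blue replicate 2, and WRKY47 had it in blue replicates 1 and 3. The folds of its best summits were 6.62, 7.61 and 6.29 in dark replicates 1, 2 and 3 and 4.81, 5.05 and 4.79 in blue replicates 1, 2 and 3, and every dark value lay above every blue value. By −log10 q these summits were among the top 7.72% to 12% of the dark and the top 7.67% to 9.96% of the blue lists. The peaks spanned 10630890 to 10631638 on chromosome 2 (TAIR10), and their 6 summits fell within 41 bp of each other. Each lay within 29 bp of one end of the gene, 5 of them inside the body. The nearer edge of the next coding gene, AT2G25010, was 106 to 147 bp away. The heights were 7.53, 8.75 and 7.17 in darkness and 5.24, 5.47 and 5.20 in blue light, again without overlap. The solved local control background was at its floor, the library background, at the best summit of every library.

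WRKY47 (AT4G01720) had its peaks outside the gene. The 6 summits lay 618 to 640 bp beyond one end, within 22 bp of each other, in peaks from 743926 to 744416 on chromosome 4. No other coding gene lay within 5 kb of them on the measured distances of 5121 to 5143 bp. The folds were 5.20, 6.58 and 5.83 in darkness and 5.25, 4.57 and 5.38 in blue light, and the groups overlapped. Its heights did not overlap, at 6.63, 7.54 and 6.64 in darkness and 5.74, 5.98 and 5.85 in blue light. Relative to the median region, as given below, the log2 difference of WRKY47 was 0.16, blue minus dark. The control background was at most 1.23 times that of the library.

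WRKY7 (AT4G24240), a calmodulin-binding repressor of defence, was the member with the most summits, 13 in all, each inside the body. They fell at 2 places toward opposite ends of the gene. Peaks between 12572973 and 12573717 on chromosome 4 were found in all 6 libraries, and peaks between 12571510 and 12572097 in every library but dark replicate 3. The best folds were low, 2.90, 3.80 and 3.53 in darkness and 3.36, 3.24 and 3.01 in blue light, with overlapping groups. At the place found in all libraries the heights were 3.11, 4.28 and 3.95 in darkness and 3.63, 3.47 and 3.23 in blue light, so dark replicate 1 was the lowest of the 6.

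WRKY15, WRKY46 and WRKY33 also had summits in all 6 libraries, every one inside the body, and here the control itself was above the library background in some or all libraries. WRKY15 (AT2G23320) is a stress-responsive regulator linked to reactive oxygen and osmotic stress. Its best folds were 5.67, 3.32 and 4.44 in darkness and 1.94, 2.05 and 1.92 in blue light, with no overlap (peaks from 9925431 to 9926475 on chromosome 2). The heights, which do not divide by the local control, were 9.64, 7.82 and 8.25 in darkness and 6.32, 7.10 and 5.38 in blue light, also without overlap. At the tallest summits the local control background was 1.57, 2.23 and 1.73 times the library background in darkness and 3.20, 3.42 and 2.76 times in blue light (exact permutation test, two-sided, p = 0.10). In each blue library WRKY15 had the lowest fold and the highest control background of the 6 members found throughout. The next coding gene, AT2G23321, lay 360 to 795 bp from the WRKY15 summits, so under the 1 kb rule they count for it too.

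WRKY46 (AT2G46400), a group III factor of drought and brassinosteroid responses, had folds of 5.23, 6.02 and 4.31 in darkness and 2.82, 2.41 and 3.10 in blue light, with no overlap (peaks from 19043735 to 19044712 on chromosome 2). Its heights were 6.33, 6.89 and 7.71 in darkness and 4.88, 5.31 and 5.01 in blue light. The control background there was 1.08, 1.00 and 1.66 times that of the library in darkness and 1.66, 2.15 and 1.54 times in blue light, and these groups overlapped. The next coding gene, SDH8, lay 765 to 916 bp from the best WRKY46 summits, so they count for it too.

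WRKY33 (AT2G38470), the group I activator of camalexin synthesis and of resistance to necrotrophic fungi, had similar heights in both conditions. They were 5.72, 5.30 and 5.29 in darkness and 5.38, 5.82 and 5.99 in blue light, and the groups overlapped. The folds at its best summits were 5.06, 3.54 and 3.65 in darkness and 2.02, 3.05 and 2.55 in blue light, without overlap. At the tallest summits the control background was 1.00, 1.37 and 1.33 times the library background in darkness and 2.61, 2.99 and 2.28 times in blue light (exact permutation test, two-sided, p = 0.10). In fragments at those summits, dark replicate 1 had 57 (exact Poisson 95% interval 43.2 to 73.9) and blue replicate 3 had 128 (107 to 152). Such intervals cover counting error only. These counts are not scaled for depth, and the library backgrounds were 9.96 and 21.4 fragments. Over those backgrounds the heights were 5.72 and 5.99. The peaks ran from 16108260 to 16108979 on chromosome 2, and the noncoding gene AT2G08965 overlapped 2 of the 7 summits.

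**Figure D3:**
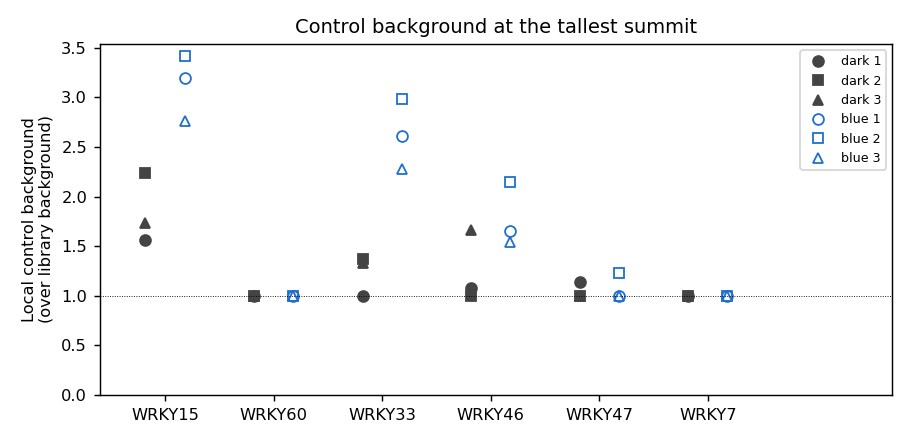
Local control background at the tallest summit of the 6 WRKY genes found in all libraries, as a multiple of the library background (dotted line at 1); filled grey symbols are dark, open blue symbols blue libraries. All 3 blue values lie above all 3 dark values at WRKY15 and WRKY33, and all 6 values lie at 1, the floor of the solving, at WRKY60 and WRKY7.

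A control background higher in every blue than in every dark library was seen at 5.52% of the 525 regions found in all 6 libraries, and the reverse at 16%. WRKY15 and WRKY33 were the members with the first pattern and no member had the second. Across the whole lists, summits with a control background above 1.5 times the library value made up 21.6% to 23.5% in the dark and 12.4% to 14.1% in blue light. The pairing of controls with lists is not given, and the part of the control in the fold differences was not tested.

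The heights allowed a fit across all 525 regions with a summit in every library. On depth scaling alone the blue heights were lower, with a median log2 difference of -0.42, and 418 regions fell (79.6%) while 4 rose (0.762%) by limma at an adjusted p under 0.05. Changes are therefore given relative to the median region, where 30 regions rose (5.71%) and 52 fell (9.9%). Among the 6 members, WRKY33 rose by 0.47 ± 0.09 (log2, SE, n = 3 each) relative to the median region (limma, adjusted p = 0.00544), and 8 of the 525 regions rose by more. Without each library in turn its adjusted p ran from 0.00551 to 0.0358. On depth scaling alone WRKY33 did not pass, with a log2 difference of 0.07 (limma, adjusted p = 0.439), and with the deposited folds, which divide by the local control, it was -0.42 relative to the median (limma, adjusted p = 0.221).

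The other members did not pass relative to the median region. The log2 differences were 0.27 ± 0.12 for WRKY7 and 0.16 ± 0.09 for WRKY47 (SE, n = 3 each, limma, adjusted p = 0.120 and 0.230). They were -0.06 ± 0.12 for WRKY15, -0.06 ± 0.10 for WRKY46 and -0.16 ± 0.09 for WRKY60 (SE, n = 3 each, limma, adjusted p = 0.766, 0.715 and 0.251). On depth scaling alone WRKY15, WRKY46, WRKY60 and WRKY47 fell by 0.45, 0.46, 0.56 and 0.24 on the log2 scale (limma, adjusted p = 0.00291, 0.000841, 0.000209 and 0.0248). The sign of WRKY47 and WRKY7 depended on the scaling, with WRKY7 at -0.12 on depth alone (limma, adjusted p = 0.326). With deposited folds relative to the median, where 9 of the 525 regions fell (1.71%) and 15 rose (2.86%), WRKY15 and WRKY46 fell by 0.89 and 0.63 (limma, adjusted p = 0.0185 and 0.0496).

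**Figure D4:**
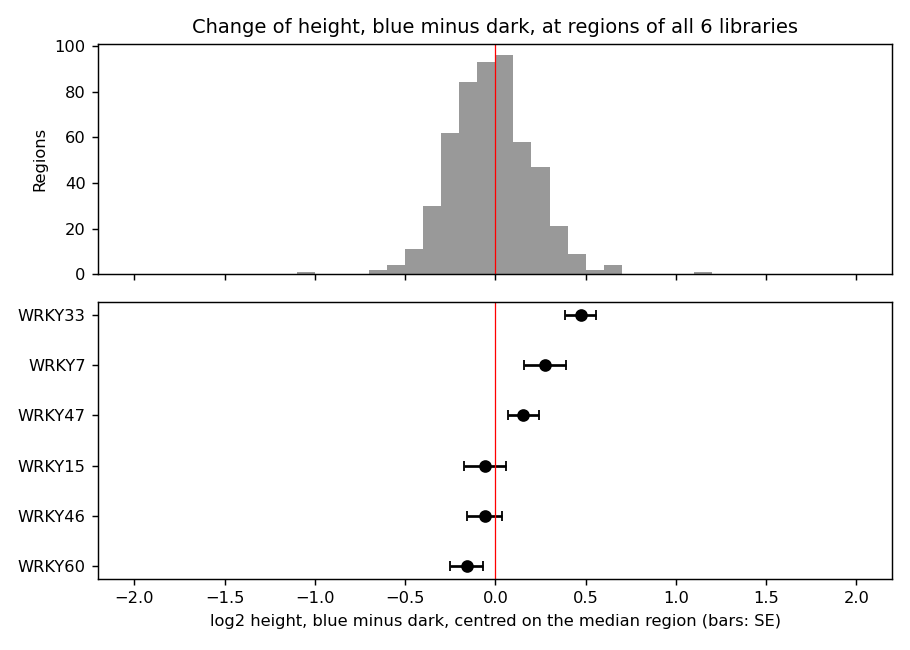
Upper panel, number of regions by log2 change of height (blue minus dark, relative to the median region) for the 525 regions of all 6 libraries; lower panel, the 6 WRKY genes among them with SE bars (n = 3 libraries per condition). WRKY33 lies at 0.47, in the upper tail, and the other 5 lie between -0.16 and 0.27.

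Some members had summits in the libraries of 1 condition alone. WRKY40 (AT1G80840), a repressor of early immune responses and of abscisic acid signalling, had a summit inside its body in all 3 dark libraries and in no blue library, a pattern seen in 0.401% of all genes. The dark folds were 3.35, 4.09 and 3.06 and the dark heights 5.52, 4.75 and 5.02 (peaks from 30383710 to 30384059 on chromosome 1, summits within 58 bp). Multiplied by the median blue to dark height ratio of 0.746, these heights would be 3.54 to 4.12. The control background was 1.53, 1.03 and 1.53 times that of the library in the dark. The lowest blue heights listed were 2.50 to 2.53 at library background, 3.28 to 3.41 at a control background of 1.5 to 2 times that value and 4.04 to 4.31 at 2 to 3.5 times. The control value at WRKY40 in blue light is not in the peak lists, so neither its blue height nor the limit that applied there is known. All 3 dark libraries remained with a −log10 q minimum of 5, with a fold minimum of 3, in the body alone and with lists of equal length. Those settings only remove summits, so the 0 blue libraries could not change under them. Within 3 kb and by interval overlap, which can add libraries, the split was also 3 dark and 0 blue.

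WRKY25 (AT2G30250), a group I factor of heat and defence responses, showed the opposite pattern, with summits in every blue library (3 of 3) and none in the dark, which 1.13% of all genes had. At the summits inside the WRKY25 body the solved control background was at its floor, the library background. The folds there were 2.84, 3.06 and 2.63 and the heights 3.05, 3.27 and 2.81. Divided by the same ratio of 0.746, these heights would be 4.09, 4.38 and 3.77, and the lowest dark heights listed were 2.98 to 3.05 at library background and 3.86 to 4.00 at 1.5 to 2 times that value. The dark control value at WRKY25 is not in the peak lists, and the part of the listing limits in the split was not tested. All 3 blue libraries remained in the body alone and with lists of equal length, and 1 was left with a −log10 q minimum of 5 or a fold minimum of 3. Those settings only remove summits, so the 0 dark libraries could not change under them. Within 3 kb and by interval overlap, which can add libraries, the split was also 0 dark and 3 blue. The peaks ran from 12904920 to 12905491 on chromosome 2, where the neighbouring gene U2B'' (AT2G30260), which encodes a spliceosomal protein, lay 101 to 166 bp from the 3 summits inside WRKY25. A further summit of blue replicate 3 lay inside U2B'' itself, with a fold of 2.80 and a height of 3.00.

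WRKY43 (AT2G46130) had summits in blue replicates 2 and 3 alone, at folds of 2.69 and 3.01 and heights of 2.86 and 3.23. The summit of blue replicate 3 lay inside another annotated gene, AT2G46120. The summits lay 493 and 552 bp from WRKY43 and 137 and 78 bp from KPHMT1 (peaks from 18956558 to 18956831 on chromosome 2). With a −log10 q minimum of 5 neither was left.

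WRKY66 (AT1G80590) and WRKY67 (AT1G66550), group III genes, each had summits in all 3 dark libraries and in blue replicates 2 and 3. At WRKY66 the folds were 4.72, 4.83 and 3.29 in darkness and 3.29 and 3.10 in blue light, with lower heights in blue (3.46 and 3.52) than in the dark (4.75 to 5.49). Multiplied by the ratio of 0.746 the dark heights of WRKY66 would be 3.55 to 4.10, and no summit was listed there in blue replicate 1. Its summits lay 749 to 783 bp from the gene, and WIN1 (AT1G80600) was nearer at 455 to 489 bp (peaks from 30297797 to 30298272 on chromosome 1). At WRKY67 the folds were 3.20, 4.59 and 3.60 in darkness and 2.50 and 3.39 in blue light, and the groups overlapped. Those summits were all inside the body (peaks from 24828926 to 24829401 on chromosome 1).

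**Figure D5:**
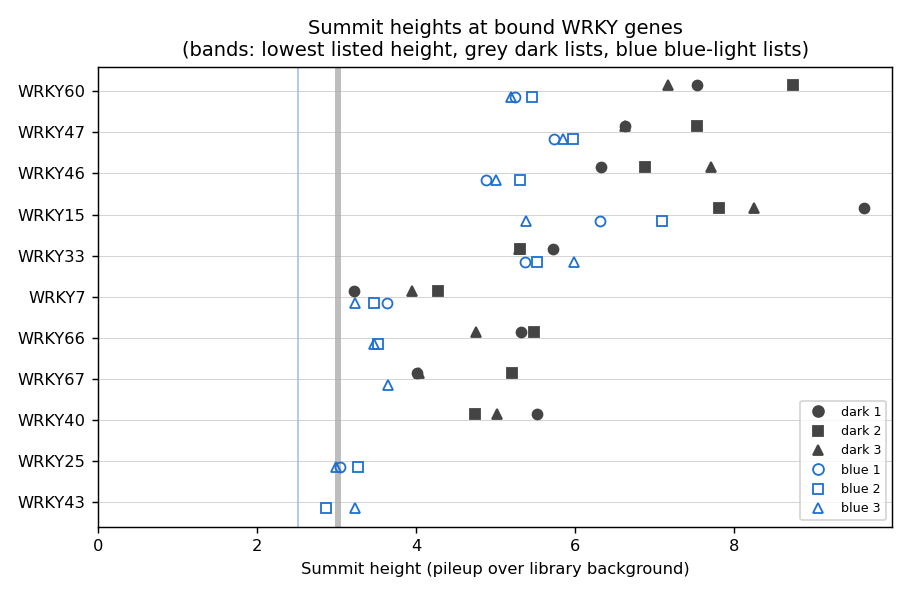
Height of the summit with the highest fold at each bound WRKY gene, as pileup over library background; filled grey symbols are dark, open blue symbols blue libraries, and the bands mark the lowest height listed at library background in the dark lists (2.98 to 3.05) and the blue lists (2.50 to 2.53). WRKY40 lies at 4.75 to 5.52 in the dark, and WRKY25 and WRKY43 lie at 2.86 to 3.27 in blue light, with heights not scaled between conditions. The WRKY25 symbol of blue replicate 3 is the summit inside U2B'', 112 bp outside WRKY25. The summit inside WRKY25 in that library, at a height of 2.81, is not drawn. The height of WRKY67 in blue replicate 2 could not be solved and is not drawn.

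The remaining members had few or no summits. WRKY27 and WRKY48 had a summit in 1 dark and 1 blue library, WRKY39 in 1 dark library, and WRKY57 and WRKY69 in 1 blue library. No summit was listed at the other 51 members. Among these were WRKY18, the third member of subgroup IIa, WRKY70 and WRKY54, regulators of salicylic acid responses, WRKY53, a regulator of leaf senescence, and WRKY22 and WRKY29, which act in flagellin signalling. Absence from a list says that no peak was called there, not that MAC3A was absent.

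Genes that act with WRKY factors were bound in part. Of 9 mitogen-activated protein kinase and kinase kinase genes 2 were bound in each condition (5.61% of all genes in the dark, 7.36% in blue light). MPK3, which phosphorylates WRKY33, had summits in all 6 libraries, with folds of 4.20, 4.20 and 3.83 in darkness and 2.77, 2.67 and 2.70 in blue light, without overlap. MKK1 had them in 2 dark and 3 blue libraries, with median folds of 2.72 and 2.83. At MPK3 and at MKK1 a summit inside the body was found in 0 dark libraries and 1 blue library, and the others lay beside the gene. Of 7 genes of VQ proteins, 1 was bound in either condition (8.81% of all genes), AT1G78310, in 2 blue libraries (median fold 2.39) and no dark library. The AT1G78310 summits lay beside the gene.

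Of 24 defence and hormone genes that WRKY factors regulate or act beside, 4 were bound in the dark (5.61% of all genes) and 4 in blue light (7.36%). FRK1, a receptor kinase gene induced by flagellin, had summits in its body in all 6 libraries, with folds of 10.4, 11.3 and 10.9 in darkness and 7.87, 6.13 and 6.63 in blue light. These folds exceeded those of every WRKY gene in the same library. ACS6, an ethylene synthesis gene, also had summits in its body in all 6, with median folds of 3.33 and 2.25. EDS1, a core component of immune receptor signalling, had summits beside the gene in 3 dark and 2 blue libraries (median folds 2.75 and 2.71). The jasmonate repressor gene JAZ1 had summits in 2 dark and 1 blue library. NPR3, a salicylic acid receptor gene named after its values were seen, was bound in 2 blue libraries and no dark library.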

How the data were processed

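The tools named in the submitters' processing notes are MACS2 2.1.1, ChIPseeker, Bowtie2 and SAMtools, and the build is TAIR10. The sources used here give neither parameters nor an order of steps. One peak list per MAC3A library was used as deposited, and signal of the 6 controls was not analysed here. In the deposited lists the fold is a ratio over the caller's local background, with the −log10 of the p value and of the q value per summit. The whole-number score deposited by the authors and the summit offset complete each list, and the score was not used.

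Genes and symbols came from the RefSeq table for TAIR10.1, which has no strand. It was used only to place summits in a gene body or within 1 kb of either end, and printed coordinates are those of the peak lists, counted from 1. Background and pileup were solved from fold and p by the caller's formulas, (pileup + 1)/(background + 1) and the Poisson upper tail, with whole fragments required (tolerance 0.03). This solved 99.0% to 99.9% of summits per list. Peaks overlapping by at least 1 bp were merged, and log2 heights of the tallest summits were fitted with limma 3.58.1 (Benjamini-Hochberg adjusted over 525 regions, threshold 0.05). The solving and this fit were added after the lists were seen. Single values were compared by exact permutation tests over libraries.

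The members, gene lists, subgroups and tests were chosen with earlier results of these data known. Named were every WRKY gene with a summit and up to 4 bound genes per partner list, by number of libraries and then fold; NPR3 falls outside that rule. The symbol ERF1 matched no single gene. Promoter sequences and motifs were not analysed here. Python 3.11.15, pandas 2.3.3 and scipy 1.17.1 were used. Alternatives comprised the window, peak thresholds, equal list lengths, interval overlap, each library left out, and, for heights, the scaling, the measure and the variance model.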

Additional observations from a re-analysis of the deposited data

How the results depend on the processing

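The blue minus dark difference in WRKY genes per library had no stable sign. It was -0.333 within 3 kb, -2 with a −log10 q minimum of 5, -4 with a fold minimum of 3 and -1 with lists of equal length, and from -0.5 to 1.5 without each library in turn. Exact permutation p values ran from 0.1, the smallest possible and reached with the fold minimum, to 1 over these settings. Bound members in blue light numbered 6 with that q minimum and 4 with that fold minimum (3.6% and 3.24% of all genes), and members bound in both numbered 5 and 4 (2.17% and 2.37%). The other settings kept these counts, and every setting the count bound in the dark, within 1.5 times.

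At the regions of all 6 libraries, settings chosen after seeing the data gave 4 higher and 418 lower on depth scaling alone, 15 and 9 with deposited folds and 83 lower with a variance trend. Without each library in turn 11 to 29 were higher and 17 to 41 lower. The sign turned for WRKY47 (-0.24) and WRKY7 (-0.12) on depth scaling and for WRKY33 (-0.42) with deposited folds. Without each library, WRKY15 ran from -0.15 to 0.05 and WRKY46 from -0.13 to 0.029. WRKY15 was at 0.03 without dark replicate 1 and at 0.053 without blue replicate 3, and WRKY46 at 0.029 without dark replicate 3. The cause was not tested.

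Same-numbered libraries did not deviate together (correlations of 0.010, -0.030 and -0.0044 across regions). The main fit did not pair them, but these correlations cannot settle whether the numbers mark pairs. With a replicate block the per-library difference was 0.333 (exact sign-flip permutation, p = 1), 39 regions were higher and 50 lower, and no member's call changed. At library background the lowest heights listed were 2.98 to 3.05 in the dark and 2.50 to 2.53 in blue light.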
